A study of Mus musculus with 4 samples.

Results

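The genes described are those that bring glucose into a cell and trap it there. They are the transporters Slc2a1 (GLUT1) and Slc2a3 (GLUT3) and the hexokinases Hk1, Hk2 and Hk3, which are 5 of the 32285 genes in the count tables. They were chosen by symbol, with no measured value in the rule, and each symbol matched 1 gene. The mouse cells came from a study of checkpoint blockade in ovarian tumours, and the labels give lymph node as the tissue. Groups were labelled 2DG_aPDL1 (the combination), 2DG, aPDL1 and ctrl, with 1 droplet 3′ library each. 2DG is 2-deoxy-D-glucose, a glucose analogue, and aPDL1 is taken as an agent against the checkpoint ligand PD-L1, as the study's title implies. The sources used here do not give strain, age, dose, duration or the number of animals per library.

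Glucose crosses the membrane through facilitative carriers of the SLC2A family. GLUT1 serves most cells at a basal rate and is raised in activated and oxygen-starved cells, while GLUT3 has a high affinity and is known from neurons and leukocytes. Hexokinases then phosphorylate glucose to glucose 6-phosphate, which cannot leave through the carriers. Hk1 is the widely expressed form and Hk2 the inducible one, and both can bind the outer mitochondrial membrane. Hk3 is a form of blood and myeloid cells. 2DG uses the same entry: the carriers import it and hexokinase phosphorylates it, after which glycolysis cannot take it further, so these genes encode both its way in and its first enzyme.

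In the mouse annotation (GENCODE M21, build GRCm38, which is mm10), Slc2a1 (ENSMUSG00000028645) spans chr4:119108711-119137983 on the plus strand. The other members lie on minus strands. Slc2a3 (ENSMUSG00000003153) spans chr6:122727809-122801640 and Hk2 (ENSMUSG00000000628) spans chr6:82725025-82774454. Hk1 (ENSMUSG00000037012) spans chr10:62268855-62379908 and Hk3 (ENSMUSG00000025877) spans chr13:55005985-55021385. All of them are protein-coding genes, and the counts cover whole genes, so exons, introns and UTRs cannot be told apart. Genes on the opposite strand overlap Slc2a1, Hk1, Hk2 and Hk3 in this annotation, namely Gm12867 and Gm12868, Hk1os, Gm17034 and Unc5a. Whether reads were counted by strand is not stated, so the counts of these members may hold reads of their partners. On the same strand, the processed pseudogene Gm4482 overlaps Slc2a3 and the microRNA gene Mir1957a overlaps Slc2a1. Neither is among the genes of the count tables.

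Promoter windows of 300 bases run from 250 before to 50 after the RefSeq start in GRCm38.p6. They are shown for Slc2a1 and Hk2 because both were called lower with 2DG in the neutrophil gate as a whole. There 2 of the 8 hypoxia genes with enough UMIs, described below, were called lower too. A link between the 2 results was not tested. Capitals mark each match to ACGTG, the core of the hypoxia response element, on either strand (CACGT on the strand shown).
Slc2a1, chr4:119108495-119108794, plus strand: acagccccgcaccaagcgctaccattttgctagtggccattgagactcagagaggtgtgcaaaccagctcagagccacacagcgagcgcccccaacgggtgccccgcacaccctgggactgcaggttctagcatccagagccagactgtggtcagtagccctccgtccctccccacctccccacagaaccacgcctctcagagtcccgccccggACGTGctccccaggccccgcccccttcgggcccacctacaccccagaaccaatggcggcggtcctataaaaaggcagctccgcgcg
Hk2, chr6:82774405-82774704, minus strand: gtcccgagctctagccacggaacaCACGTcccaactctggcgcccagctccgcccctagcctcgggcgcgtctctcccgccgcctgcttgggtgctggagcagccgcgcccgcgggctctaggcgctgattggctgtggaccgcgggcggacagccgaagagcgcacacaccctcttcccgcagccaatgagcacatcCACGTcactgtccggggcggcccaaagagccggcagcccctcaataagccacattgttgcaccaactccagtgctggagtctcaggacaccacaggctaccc
The Slc2a1 window held 1 match and the Hk2 window 2 matches. Hk1, which was not lower with 2DG by the same rule, has 2 windows, of which that at chr10:62340372-62340671 also held 2 matches and the other none. No window is shown for Slc2a3. Of 32851 such windows over 27025 genes, 19.6% held at least 1 match. The Hk3 window is shown because Hk3 UMIs lay mostly in myeloid cells. Capitals there mark AGGAAG, a core of sites for the ETS factor PU.1, or its complement CTTCCT.
Hk3, chr13:55021336-55021635, minus strand: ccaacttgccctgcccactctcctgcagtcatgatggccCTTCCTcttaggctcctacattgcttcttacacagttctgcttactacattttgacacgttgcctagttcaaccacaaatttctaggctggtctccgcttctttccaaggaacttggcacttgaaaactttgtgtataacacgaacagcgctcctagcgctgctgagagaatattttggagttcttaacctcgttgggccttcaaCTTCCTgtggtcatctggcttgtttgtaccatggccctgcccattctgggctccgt
It held 2 matches, a motif present in 35.4% of all windows, and 1 match to ACGTG. The Hk1 window at chr10:62340372-62340671 held 1 match to AGGAAG. The other Hk1 window and those of Slc2a1 and Hk2, both also high in myeloid gates, held none. These matches are descriptions of sequence.

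The libraries held 65369018 UMIs (unique molecular identifiers, 1 per captured transcript) in 2DG_aPDL1, 61859753 in 2DG, 62823127 in aPDL1 and 73885214 in ctrl. After filtering, 8554, 7390, 8338 and 8389 cells were analysed in that order, and any pair of libraries shared 22 to 30 barcodes. Cells were gated by how many markers of a type they held, and no gate was passed by 10.1% of cells in 2DG_aPDL1, 11.9% in 2DG, 13.4% in aPDL1 and 11.8% in ctrl. Cells passing several gates, also left out, were 3.51%, 3.73%, 4.32% and 9.93%. The ctrl library stood apart: 2783 of its cells were neutrophils, against 255 in 2DG_aPDL1, 311 in 2DG and 245 in aPDL1, and 368 were T cells, against 2578, 2593 and 2479. B cells numbered 430, 115, 211 and 63 in the order 2DG_aPDL1, 2DG, aPDL1 and ctrl, few for a tissue labelled lymph node, while 3497, 2604, 3334 and 3104 cells were monocytes or macrophages. Treatment and library are the same thing here, so no spread within a group is known, no test was made and no p-value is given. Intervals are 95% limits, exact Poisson for levels and exact Clopper-Pearson for shares, and cover counting error only.

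Levels below are UMIs of the gene per 1000000 UMIs of a gate (CPM), and each gate name means cells like that type by its markers. Slc2a1 was a gene of neutrophils and macrophages here. Its level in neutrophils was 263 CPM in 2DG_aPDL1 (228 to 302), 307 in 2DG (276 to 341), 477 in aPDL1 (430 to 528) and 799 in ctrl (784 to 815). In monocytes or macrophages it was 196 CPM in 2DG_aPDL1, 225 in 2DG, 250 in aPDL1 and 481 in ctrl. Its level in T cells stayed between 48.5 and 57.5 CPM over the 4 libraries, and in B cells between 47.8 and 56.8 CPM. Dendritic cells of the cDC2 gate, the type that presents antigen to CD4 T cells, had 86.9 to 111 CPM. Migratory dendritic cells were low, at 20.1 CPM in 2DG_aPDL1, 15.6 in 2DG, 17.3 in aPDL1 and 43.9 in ctrl. Between the median levels of T, NK and B cells, which were 54.9, 58.8 and 50.2 CPM, the libraries' ranges overlapped, so no order among lymphocytes is read from them.

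Slc2a3 was shared out in another way. Its highest levels were in neutrophils, at 130 CPM in 2DG_aPDL1 (106 to 158), 185 in 2DG (161 to 212), 378 in aPDL1 (336 to 424) and 345 in ctrl (335 to 355). CD8 T cells, the cytotoxic T cells, came next with 113, 118, 125 and 125 CPM in the order 2DG_aPDL1, 2DG, aPDL1 and ctrl. In 2DG_aPDL1 the intervals of neutrophils and CD8 T cells overlapped. Regulatory T cells held 81.4 to 97.4 CPM and B cells 17.3 to 34.7 CPM. Monocytes or macrophages had only 2.50 CPM in 2DG_aPDL1, 2.82 in 2DG, 3.46 in aPDL1 and 9.78 in ctrl. Plasmacytoid dendritic cells, the producers of type I interferon, had 65.2 CPM in 2DG_aPDL1, 45.8 in 2DG and 96.3 in aPDL1, from 13, 14 and 16 UMIs, while cDC2 cells had 6.29 to 13.2 CPM.

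Hk1 was the most even hexokinase. Neutrophils had 170 CPM in 2DG_aPDL1, 176 in 2DG, 233 in aPDL1 and 167 in ctrl. Regulatory T cells had 144, 134, 161 and 100 CPM in the same order, and CD8 T cells had 92.8, 105, 124 and 77.4 CPM. B cells lay lowest among the larger gates, with 23.1 to 42.0 CPM.

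Hk2 was high in neutrophils, macrophages and cDC2 cells. Neutrophils had 242 CPM in 2DG_aPDL1 (209 to 280), 223 in 2DG (197 to 252), 400 in aPDL1 (357 to 447) and 476 in ctrl (465 to 488). Monocytes or macrophages had 190, 236, 254 and 214 CPM in the order 2DG_aPDL1, 2DG, aPDL1 and ctrl, and cDC2 cells had 192, 224, 250 and 222 CPM. CD8 T cells held 29.5 to 43.6 CPM, B cells 8.44 to 16.9 CPM and NK cells 6.35 to 14.2 CPM.

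Hk3 was found almost wholly in myeloid cells. Neutrophils had 177 CPM in 2DG_aPDL1, 204 in 2DG, 244 in aPDL1 and 234 in ctrl, and monocytes or macrophages had 162, 118, 112 and 112 CPM. Among dendritic cells the cDC1 gate, the type that cross-presents antigen to CD8 T cells, held 26.2 to 48.2 CPM and the cDC2 gate 12.0 to 22.0 CPM. T cells had 2.01, 1.68, 2.15 and 0.76 CPM. After each cell was thinned to 2000 UMIs, 0.31%, 0.19%, 0.37% and 0% of T cells held an Hk3 UMI, against 23.9%, 18.8%, 18.5% and 18.9% of monocytes or macrophages. The unthinned shares were 1.12%, 1.12%, 1.33% and 0.54% of T cells at median depths of 5576.5, 6057, 5690 and 6367.5 UMIs, and 51.2%, 46.8%, 42.8% and 51.1% of monocytes or macrophages at 7062, 7723.5, 6865.5 and 10465 UMIs. Per 1000 UMIs of the macrophage markers, T cells carried 5.91, 6.21, 6.05 and 2.43 Hk3 UMIs and monocytes or macrophages 14.6, 12.5, 11.6 and 15.2. No expression of Hk3 is read from the T cell values.

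**Figure D1:**
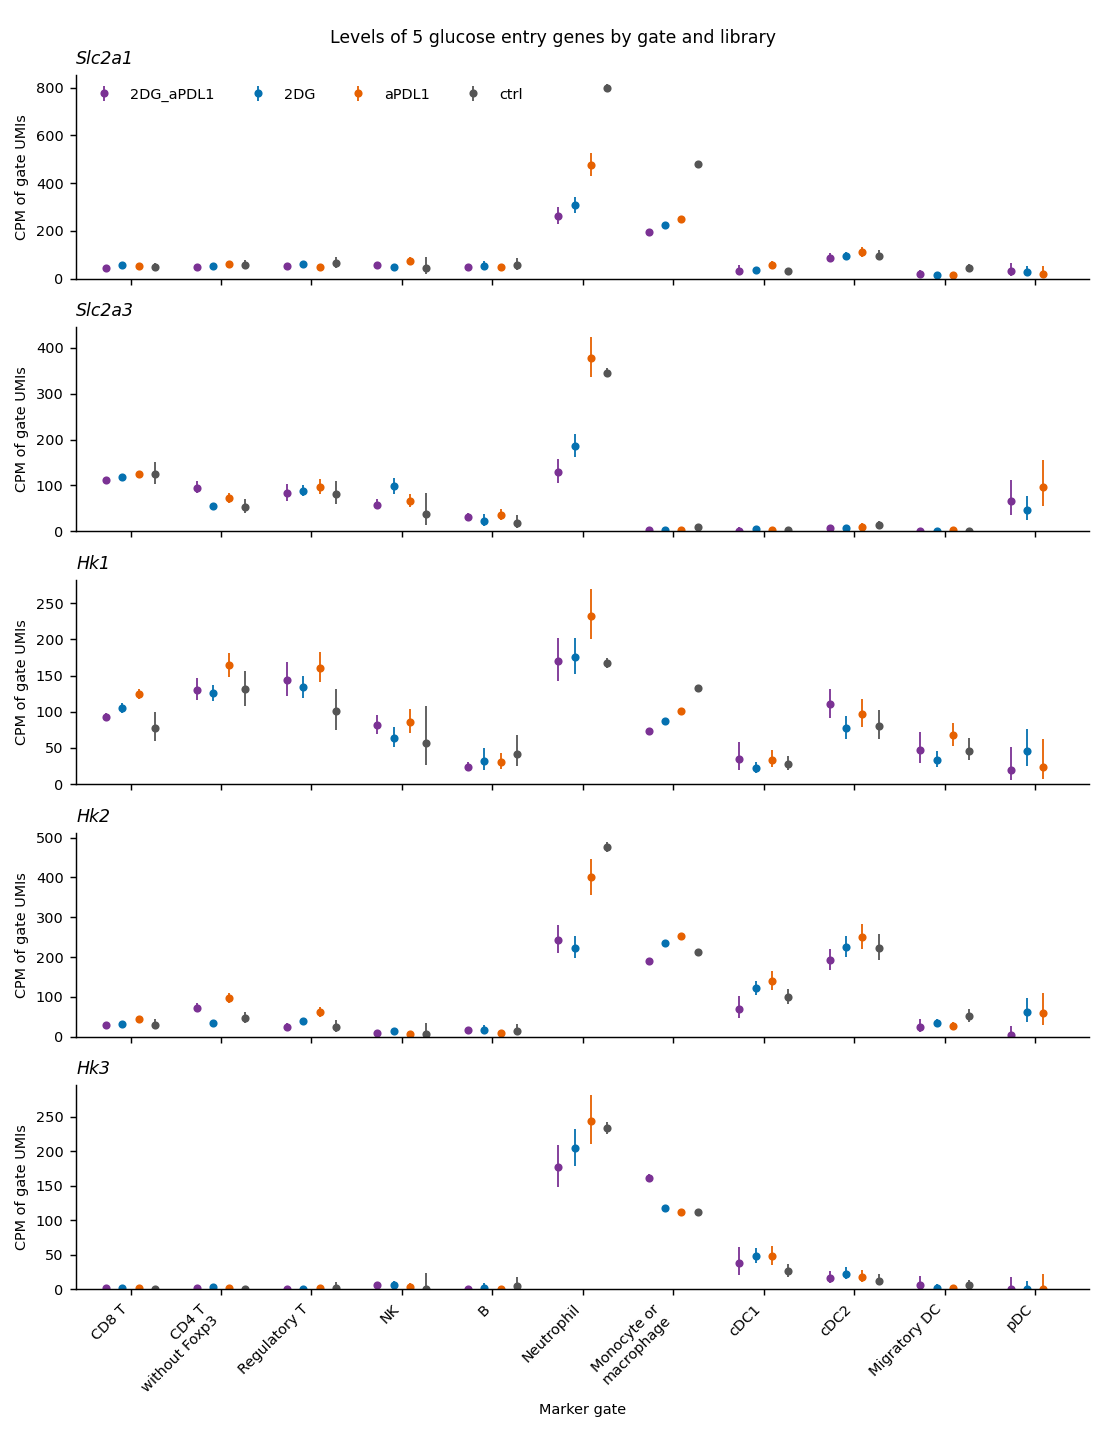
Level of each member (CPM of the gate's UMIs, vertical axis) in 11 marker gates, with 1 point per library and exact Poisson 95% intervals for counting error; gates with fewer than 20 cells in a library have no point for it. Slc2a1 is highest in neutrophils and macrophages, Slc2a3 in neutrophils and CD8 T cells, and Hk3 is near 0 CPM in T and B cells.

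The pairing of carrier and kinase differed between lineages. UMIs of a 3′ kit are counted once per transcript, so a make-up of UMIs can be set side by side between gates, although capture may differ between genes. Of the transporter UMIs in T cells, Slc2a3 gave 68.2% in 2DG_aPDL1 (66.3 to 70.0), 62.0% in 2DG (60.1 to 63.8), 67.0% in aPDL1 (65.1 to 68.8) and 60.2% in ctrl (55.0 to 65.3). In monocytes or macrophages it gave 1.26%, 1.24%, 1.36% and 1.99%. Neutrophils held both carriers, with Slc2a3 at 33.1%, 37.7%, 44.2% and 30.2%.

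Hk1 gave 72.0%, 76.8%, 70.1% and 74.9% of the hexokinase UMIs in T cells, in the order 2DG_aPDL1, 2DG, aPDL1 and ctrl. In monocytes or macrophages Hk2 led with 44.6%, 53.4%, 54.4% and 46.6%. Hk3 made up 38.1% there in 2DG_aPDL1 (37.2 to 39.0), above 26.8% in 2DG, 24.1% in aPDL1 and 24.4% in ctrl. The Hk1 share was lowest in 2DG_aPDL1, at 17.4%, against 19.8%, 21.5% and 29.0% in 2DG, aPDL1 and ctrl.

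**Figure D2:**
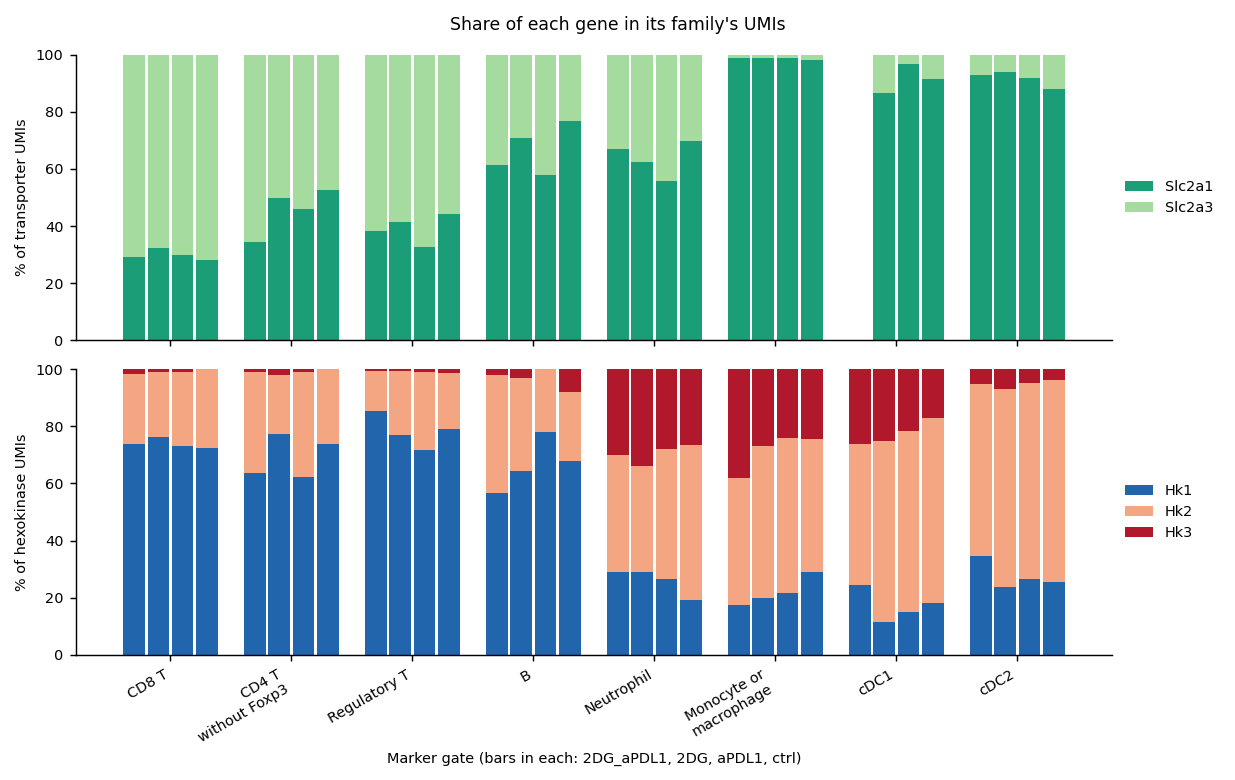
Share of each gene in the UMIs of its family (per cent, vertical axis) in 8 gates, with 4 bars per gate for 2DG_aPDL1, 2DG, aPDL1 and ctrl from left to right; a share needs at least 20 family UMIs, so 1 bar is missing in cDC1. Macrophage transporter UMIs are at least 98.0% Slc2a1, and Hk3 appears as a large share in neutrophils, macrophages and cDC1.

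Which cells carried a gene's UMIs changed with the make-up of the library. T cells held 76.7% of all Slc2a3 UMIs in 2DG_aPDL1, 71.2% in 2DG and 68.8% in aPDL1, but 3.68% in ctrl, where neutrophils held 77.7%. Neutrophils held 32.8% of the Slc2a1 UMIs in ctrl, against 2.76%, 4.88% and 4.15% in 2DG_aPDL1, 2DG and aPDL1. Over all cells Slc2a1 was at 132, 136, 165 and 500 CPM in the order 2DG_aPDL1, 2DG, aPDL1 and ctrl, so a total over the tissue mixes cell numbers with levels per cell. The comparisons below are therefore made within gates.

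The 2DG comparison asked how the genes of glucose entry stood when their analogue substrate was given, alone or with aPDL1. Its pairs were 2DG over ctrl and 2DG_aPDL1 over aPDL1. For aPDL1 the pairs were aPDL1 over ctrl and 2DG_aPDL1 over 2DG, and both comparisons share all 4 libraries. A call needed a difference of 1.5-fold or more with 1 direction in both pairs, and 50 or more UMIs on the higher side of each. Ratios are log2 ratios of CPM with 0.5 added to each count.

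In neutrophils, 3 of the 5 members were called lower with 2DG: Slc2a1, Slc2a3 and Hk2. Of all 2677 genes with enough UMIs, 2.88% were called lower and 7.99% in either direction. Slc2a1 fell by 1.38 on the log2 scale with 2DG over ctrl (1.23 to 1.54) and by 0.86 with 2DG_aPDL1 over aPDL1 (0.61 to 1.11). Slc2a3 fell by 0.89 and 1.53 in those pairs, and Hk2 fell by 1.09 and 0.72. Hk1, with ratios of 0.07 (-0.31 with TMM scaling) and -0.45, and Hk3, with -0.19 and -0.47, were not called. The median over the 5 members was -0.89 and -0.72, beside 0.18 and 0.08 over all genes tested. After thinning, 33.6% of neutrophils held a Slc2a1 UMI in 2DG_aPDL1, 37.3% in 2DG, 46.3% in aPDL1 and 63.8% in ctrl, and the unthinned shares were 40.8%, 51.1%, 57.6% and 78.0%. Thinning left out 35, 24, 44 and 197 cells in that order, which were shallower than 2000 UMIs.

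The neutrophils of ctrl were of another kind on the whole. Clustering without the members put 61.8% of ctrl neutrophils in a cluster led by Cxcl2, Cxcl3 and Ccl3, chemokines of activated neutrophils (cluster 5), against 23.5% in 2DG_aPDL1, 16.7% in 2DG and 31.4% in aPDL1. A cluster led by S100a9, Retnlg and Il1r2 (cluster 6) held 33.0% in ctrl, against 70.2%, 73.3% and 55.1%. A smaller cluster led by Ngp, Camp and Ltf (cluster 25) held 1.83% in ctrl, against 4.71%, 9.97% and 13.1%. Hk2 was a gene of cluster 5, at 640, 544, 1143 and 626 CPM there against 169, 225, 180 and 163 CPM in cluster 6, in the order 2DG_aPDL1, 2DG, aPDL1 and ctrl. Within cluster 6 alone the Hk2 ratio of 2DG over ctrl was 0.47, opposite in sign to that of the whole gate. Hk2 was called in neither cluster 5 nor cluster 6.

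Slc2a1 and Slc2a3 were called lower with 2DG within both cluster 5 and cluster 6. In cluster 5 Slc2a1 was at 621 CPM in 2DG_aPDL1, 607 in 2DG, 1028 in aPDL1 and 960 in ctrl, and in cluster 6 it was at 204, 323, 399 and 486 CPM. Slc2a3 was at 205, 108, 542 and 306 CPM in cluster 5 and at 99.9, 160, 302 and 452 CPM in cluster 6. Both carriers were thus lower in the libraries with 2DG than in their partners without it, in cluster 5 and in cluster 6. The cells behind these values numbered 60, 52, 77 and 1720 in cluster 5 and 179, 228, 135 and 917 in cluster 6. So 32, 17, 109 and 2766 UMIs carry the Slc2a3 values of cluster 5. Cluster 25 carried 21 of the gate's 101 Slc2a3 UMIs in 2DG_aPDL1, 90 of 215 in 2DG, 79 of 294 in aPDL1 and 150 of 4669 in ctrl. Slc2a3 was at 184, 276, 362 and 437 CPM there. Slc2a1 was at 35.1, 129, 96.3 and 236 CPM there, from 4, 42, 21 and 81 UMIs. The rule for calls was not applied within cluster 25. With at least 1000 detected genes per cell, Slc2a3 alone remained called in the whole gate, since Slc2a1 and Hk2 then reached -0.36 and -0.46 in 2DG_aPDL1 over aPDL1. Markers of monocytes or macrophages summed to 2303 CPM in neutrophils of 2DG_aPDL1, 2710 in 2DG, 2532 in aPDL1 and 602 in ctrl, with at most 1 of the 12 markers at 0 in a library; their part in these results was not tested.

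**Figure D3:**
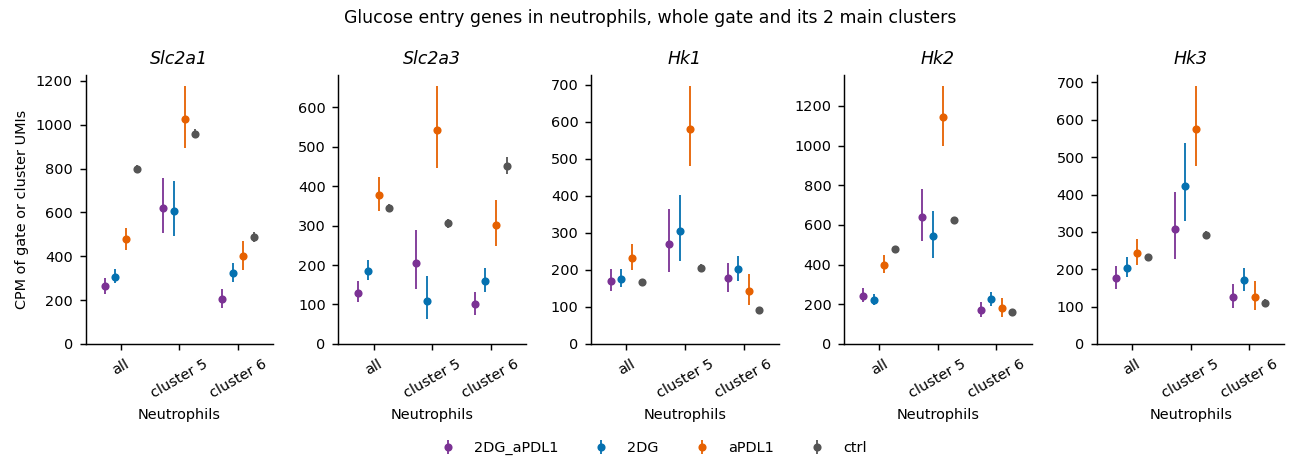
Level of each member (CPM, vertical axis) in all neutrophils and in their clusters 5 and 6, with 1 point per library and exact Poisson 95% intervals. Slc2a1 and Slc2a3 are lower in 2DG_aPDL1 than in aPDL1 and lower in 2DG than in ctrl in each panel position, while Hk2 differs between clusters more than between 2DG and ctrl.

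In the aPDL1 comparison no member was called in neutrophils, where 1.99% of 3214 genes were called. Slc2a1 differed by -0.74 in aPDL1 over ctrl and by -0.22 in 2DG_aPDL1 over 2DG, and within cluster 5 the first of these was 0.10. Hk1 differed by 0.48 and -0.05, and the other members lay between -0.51 and 0.13. TMM scaling, which shifts every neutrophil ratio of aPDL1 over ctrl by -0.33, turned the sign of Slc2a3 (0.13 without it, -0.20 with it) and Hk3 (0.07 without it, -0.26 with it).

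In monocytes or macrophages no member was called in the 2DG comparison (2.93% of 11051 genes were) or in the aPDL1 comparison (2.47% of 11034 genes were). The 3 treated libraries nevertheless shared a lower Slc2a1 than ctrl. Slc2a1 differed by -1.10 in 2DG over ctrl (-1.15 to -1.05) and -0.94 in aPDL1 over ctrl (-0.99 to -0.90), but by -0.36 in 2DG_aPDL1 over aPDL1 and -0.20 in 2DG_aPDL1 over 2DG. Slc2a3 had the same form at its low level, with -1.79 and -1.49 against ctrl and -0.47 and -0.18 in the other pairs. Neutrophil markers, from the gate with the highest Slc2a3, summed to 320, 338, 302 and 579 CPM in this class, also highest in ctrl, and none of the 9 was at 0; their part in the result was not tested. Hk1 differed by -0.61 and -0.45 in the 2DG pairs and by -0.40 and -0.24 in the aPDL1 pairs. The median over all genes tested was 0.16 and -0.09 in the 2DG pairs.

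Hk2 and Hk3 went separate ways in the combination. Hk2 was lowest there, with -0.42 against aPDL1 and -0.31 against 2DG, while its ratios against ctrl were 0.14 for 2DG and 0.25 for aPDL1. Hk3 was highest there, with 0.53 (0.46 to 0.60) against aPDL1 and 0.45 (0.38 to 0.53) against 2DG. Against ctrl, Hk3 differed by 0.08 for 2DG and 0.01 for aPDL1. With TMM scaling the small ratios of 2DG over ctrl changed sign for Hk2 (-0.01) and Hk3 (-0.07), as did that of Hk3 for aPDL1 over ctrl (-0.14).

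The finer gates show where these differences lay. Macrophages with Spp1 and Arg1, genes of tissue remodelling and arginine breakdown, made up 16.7% of the class in 2DG_aPDL1 (15.5 to 17.9), 21.3% in 2DG, 22.3% in aPDL1 and 54.2% in ctrl (52.4 to 56.0). They had the highest Slc2a1 of the finer gates, at 308, 366, 455 and 637 CPM in the order 2DG_aPDL1, 2DG, aPDL1 and ctrl. The gate is a range of a per-cell score: 411 of its cells lay just inside the threshold and 820 cells just outside it. With the finer gates at fixed weights, Slc2a1 was at 210 CPM in 2DG_aPDL1, 236 in 2DG, 270 in aPDL1 and 401 in ctrl.

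Slc2a1 in Ly6c2 monocytes, recent arrivals from blood, was 184, 194, 202 and 399 CPM, and in non-classical monocytes it was 80.9, 108, 101 and 210 CPM. Outside the Spp1 and Arg1 gate, macrophages with all 3 C1q genes, which encode a complement component, differed: Slc2a1 was lowest in ctrl there, at 178, 173, 205 and 144 CPM. Cells with all 3 C1q genes that passed the Spp1 and Arg1 gate were counted in that gate and not measured apart. In the same C1q macrophages Hk2 was at 202, 252, 274 and 146 CPM, again lowest in ctrl.

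Hk3 was called higher with 2DG in C1q macrophages, beside 1.05% of 8284 genes called higher and 3.32% in either direction; none was called in the aPDL1 comparison, where 2.91% of genes were. It was at 193 CPM in 2DG_aPDL1 (184 to 203), 134 in 2DG (125 to 144), 123 in aPDL1 (113 to 133) and 82.7 in ctrl (75.0 to 90.9). The ratios were 0.70 for 2DG over ctrl (0.52 to 0.87) and 0.65 for 2DG_aPDL1 over aPDL1 (0.51 to 0.80). Its ratios in the aPDL1 pairs were 0.57 and 0.53, just short of a 1.5-fold difference, so Hk3 ran lowest in ctrl and reached its highest level with both agents. Spp1 and Arg1 macrophages had 220, 151, 140 and 130 CPM of Hk3, Ly6c2 monocytes 147, 104, 125 and 111 CPM, and non-classical monocytes 37.6, 47.1, 46.3 and 49.3 CPM, where the combination was not highest.

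Resident peritoneal macrophages, marked by genes such as Timd4 and Gata6, were a small gate of 43, 19, 33 and 6 cells. Hk2 was called higher there in the aPDL1 comparison, beside 3.66% of 1339 genes called higher and 5.53% in either direction. It was at 357 CPM in 2DG_aPDL1 (308 to 411), 208 in 2DG (152 to 278), 347 in aPDL1 (290 to 411) and 136 in ctrl (70.5 to 238), from 191, 46, 131 and 12 UMIs. The ratios were 1.29 in aPDL1 over ctrl (0.49 to 2.34) and 0.77 in 2DG_aPDL1 over 2DG (0.31 to 1.28). In the 2DG comparison no member had enough UMIs in this gate, where 3.32% of 784 genes were called.

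Slc2a3 in ctrl C1q macrophages was 20.4 CPM (16.7 to 24.7), against 2.31 in 2DG_aPDL1, 2.59 in 2DG and 3.88 in aPDL1. With 18, 14, 18 and 105 UMIs it had too few in the pair without ctrl to be called. Neutrophil markers summed to 272, 335, 254 and 388 CPM in these cells. Per 1000 UMIs of those markers, ctrl C1q macrophages carried 52.7 Slc2a3 UMIs and ctrl neutrophils 5.90.

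**Figure D4:**
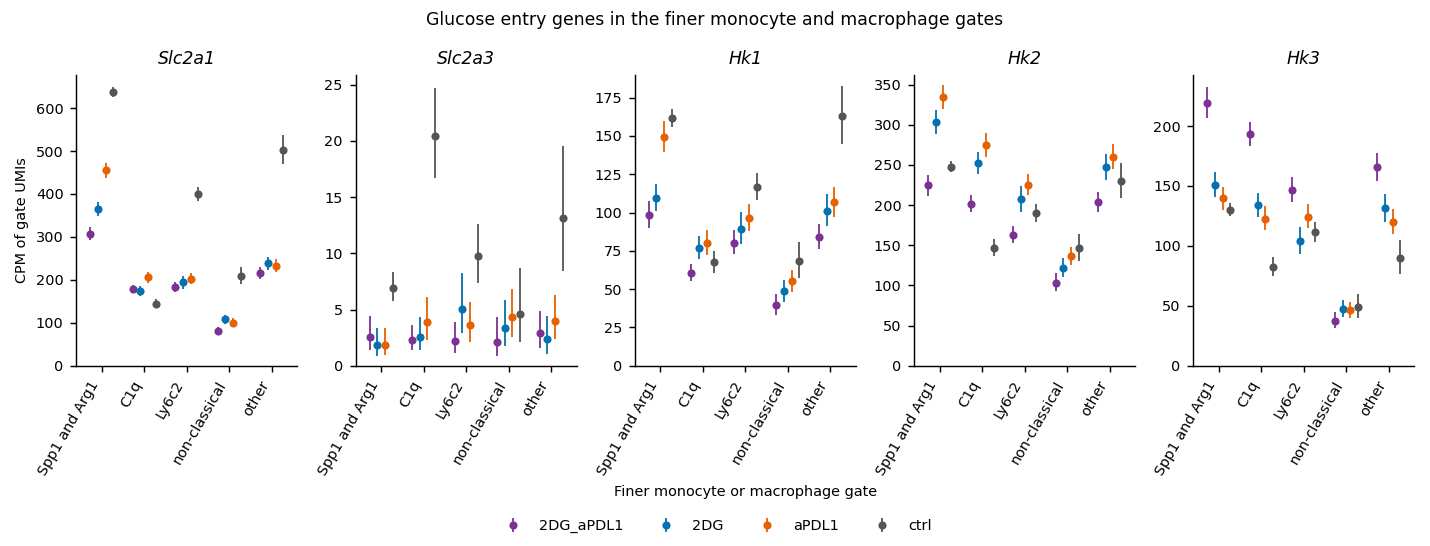
Level of each member (CPM, vertical axis; scales differ) in 5 finer gates of the monocytes or macrophages, with 1 point per library and exact Poisson 95% intervals. Slc2a1 is highest in ctrl in 4 of the 5 gates and lowest in ctrl in C1q macrophages, and Hk3 is highest in 2DG_aPDL1 in 4 of the 5.

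In CD8 T cells no member was called in the 2DG comparison (1.33% of 9234 genes were) or in the aPDL1 comparison (2.19% of 9365 genes were), and Hk3 had too few UMIs for a call. The ctrl library held 109 such cells, against 1653 in 2DG_aPDL1, 1299 in 2DG and 1551 in aPDL1, so its intervals are wide. Slc2a3 differed by -0.09 (-0.38 to 0.22) and -0.15 (-0.26 to -0.03) in the 2DG pairs and by -0.02 (-0.30 to 0.30) and -0.07 (-0.19 to 0.05) in the aPDL1 pairs. The class value joins states that differ in ctrl, where 42 of the 102 Slc2a3 UMIs came from 11 proliferating cells, so it is not read as an even level. Hk1 differed by 0.43 (0.07 to 0.83) in 2DG over ctrl and by -0.42 (-0.54 to -0.30) in 2DG_aPDL1 over aPDL1. Hk2 differed by 0.05 (-0.52 to 0.74) and -0.52 (-0.73 to -0.31) in those pairs. Both hexokinases were thus lower in 2DG_aPDL1 than in aPDL1, and the ctrl library did not show the same direction.

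The states of CD8 T cells differed in their carriers. Cells with at least 3 checkpoint genes held 122, 134, 126 and 103 CPM of Slc2a3 and 98.5, 114, 139 and 103 CPM of Hk1, in the order 2DG_aPDL1, 2DG, aPDL1 and ctrl. Naive-like cells held 70.4, 63.4, 87.9 and 48.5 CPM of Slc2a3 and 65.5, 76.1, 89.6 and 32.3 CPM of Hk1, lower than checkpoint cells in each library. The ctrl values of naive-like cells rest on 16 cells, with 6 and 4 UMIs. Proliferating cells held 97.2, 118, 96.2 and 265 CPM of Slc2a3, highest in ctrl, whereas checkpoint and naive-like cells were lowest in ctrl. The ctrl values rest on 42 UMIs from 11 proliferating cells and 39 UMIs from 51 checkpoint cells, and the limits below do not cover differences between cells. The log2 ratios of proliferating cells were -1.18 (-1.64 to -0.65) in 2DG over ctrl and -1.48 (-1.94 to -0.95) in aPDL1 over ctrl, but 0.02 in 2DG_aPDL1 over aPDL1 and -0.28 in 2DG_aPDL1 over 2DG. Those of checkpoint cells against ctrl were 0.36 (-0.09 to 0.89) for 2DG and 0.28 (-0.17 to 0.80) for aPDL1. Slc2a1 did not show a shared direction: naive-like cells held 77.0, 52.3, 74.1 and 24.2 CPM and checkpoint cells 44.0, 56.4, 53.1 and 60.9 CPM, so naive-like cells were higher in 2DG_aPDL1 and aPDL1 and lower in 2DG and ctrl.

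CD4 T cells without Foxp3 gave the single call among T cells. Hk2 was called higher in the aPDL1 comparison, beside 2.11% of 6254 genes called higher and 3.36% in either direction, while no member was called in the 2DG comparison (1.4% of genes were). In regulatory T cells no member was called for 2DG (1.45% of genes) or for aPDL1 (1.38% of genes). Hk2 in CD4 T cells without Foxp3 was at 72.7 CPM in 2DG_aPDL1 (62.2 to 84.4), 33.6 in 2DG (28.2 to 39.6), 96.7 in aPDL1 (84.8 to 110) and 46.2 in ctrl (33.3 to 62.5). The ratio was 1.05 (0.59 to 1.57) in aPDL1 over ctrl and 1.11 (0.78 to 1.45) in 2DG_aPDL1 over 2DG. Both libraries with aPDL1 lay above both libraries without it, and among these pairings the intervals overlapped for 2DG_aPDL1 and ctrl alone, between 62.2 and 62.5 CPM. Slc2a3 in these cells was at 95.5, 54.8, 71.9 and 52.8 CPM, with ratios of 0.43 and 0.80. Neutrophil markers moved along with Hk2, at 392, 140, 309 and 209 CPM summed over 9 genes, of which 2, 1, 0 and 0 were at 0. These markers summed to 346, 343, 323 and 263 CPM in regulatory T cells and to 110, 68.5, 69.0 and 134 CPM in CD8 T cells. Macrophage markers stood at 128, 100, 163 and 93.5 CPM in CD4 T cells without Foxp3. The part of either set of markers in the result was not tested.

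**Figure D5:**
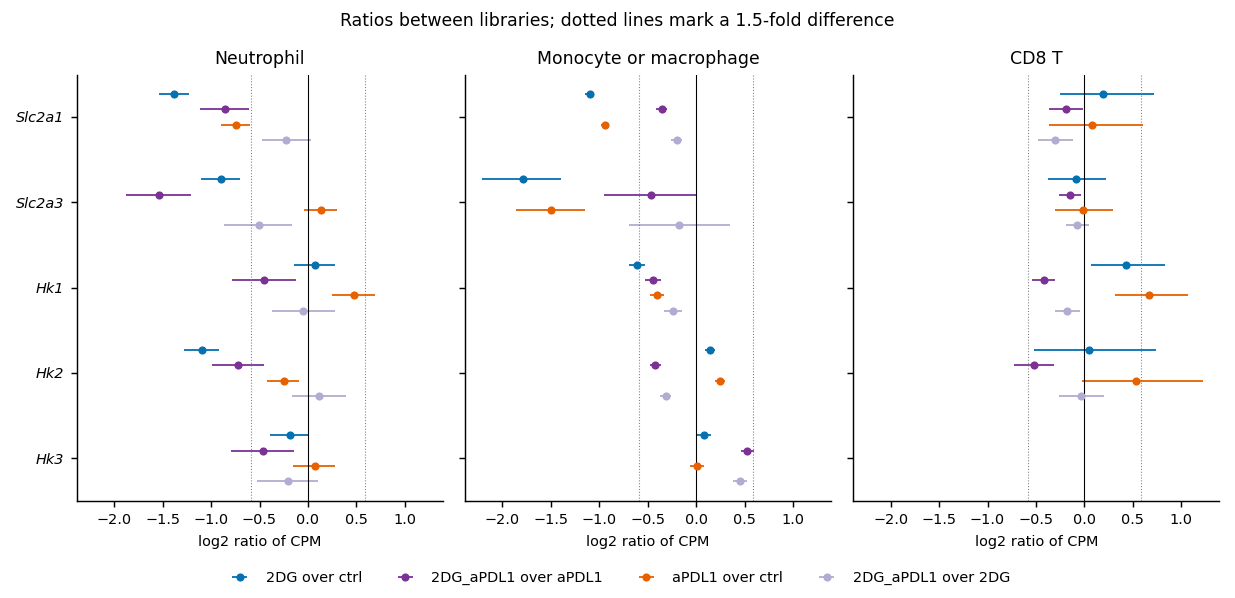
Log2 ratio of CPM (horizontal axis) for each member in the 3 main gates, with 1 point per pair of libraries and exact 95% limits for counting error; Hk3 is left out of CD8 T cells for want of UMIs. In neutrophils the Slc2a1, Slc2a3 and Hk2 points of both 2DG pairs lie below the lower dotted line, and in CD8 T cells no member passes a dotted line in the same direction in both pairs of a comparison.

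Other genes of the pathway were described from 6 fixed lists. Of the 10 other Slc2a carriers, none was called in any main gate. Enough UMIs for a call were held by 3 of them in macrophages, 2 in CD8 T cells and 0 in neutrophils. Among the 3 in macrophages was Slc2a9, a urate carrier, at 9.83, 10.8, 9.89 and 11.6 CPM. Adpgk, an ADP-dependent glucokinase, was the other glucose-phosphorylating enzyme, of 3 listed, with enough UMIs in macrophages, at 12.6, 13.8, 12.0 and 9.63 CPM and not called.

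No gene of the 17 on the list of glycolysis below hexokinase was called in any main gate. Of them, 12 had enough UMIs in neutrophils, where 7 were lower and 0 higher in both 2DG pairs. The medians there were -0.81 in 2DG over ctrl and -0.09 in 2DG_aPDL1 over aPDL1, beside 0.18 and 0.08 over all genes. In the aPDL1 pairs 2 of 12 were lower and 1 higher in both, with medians of -0.69 and 0.21. In macrophages 10 of 14 genes with enough UMIs were lower in both 2DG pairs, with medians of -0.45 and -0.26 beside 0.16 and -0.09 over all genes. The aPDL1 pairs had a like pattern, with 9 of 14 lower in both. Their medians were -0.33 and -0.16 beside 0.14 and -0.09 over all genes. The finer gates were not alike in the 2DG pairs. Spp1 and Arg1 macrophages had 11 of 13 lower in both (medians -0.24 and -0.34), but C1q macrophages 1 of 13 (medians 0.36 and -0.28). For the aPDL1 pairs these counts were 8 of 13 and 0 of 13. Over all monocytes or macrophages, Gpi1, which turns glucose 6-phosphate into fructose 6-phosphate, was at 265 CPM in 2DG_aPDL1, 348 in 2DG, 376 in aPDL1 and 563 in ctrl. In CD8 T cells 3 of 11 were lower and 3 higher in both aPDL1 pairs, whereas 9 of 11 were lower in both 2DG pairs. The 2DG medians were -0.10 and -0.36 beside -0.02 and -0.08 over all genes. Tpi1, the triosephosphate isomerase, was at 110, 112, 156 and 168 CPM there, with ratios of -0.59 and -0.51, just short of a call.

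Of 14 genes for other fates of glucose 6-phosphate, 1 was called, Gys1, the muscle-type glycogen synthase. It was lower in macrophages in both comparisons, at 34.6 CPM in 2DG_aPDL1, 52.1 in 2DG, 54.2 in aPDL1 and 97.4 in ctrl, and in CD8 T cells, at 4.24, 7.07, 6.65 and 12.3 CPM. The CD8 T values rest on 46, 64, 69 and 10 UMIs. Their ctrl interval, 5.89 to 22.6 CPM, overlapped those of 2DG (5.44 to 9.02) and aPDL1 (5.17 to 8.41). Of all genes, 2.93% were called in either direction in macrophages for 2DG and 2.47% for aPDL1. In CD8 T cells these shares were 1.33% and 2.19%. In neutrophils only 4 of the 14 had enough UMIs in the 2DG comparison and 6 in the aPDL1 comparison. Neither gene for glucose 6-phosphate hydrolysis, G6pc3 or Slc37a4, was called. Of these 2 genes, 2 had enough UMIs in macrophages, 1 in CD8 T cells and 0 in neutrophils.

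The hypoxia response list, to which Slc2a1 and Hk2 are often added, was lower with 2DG in macrophages for 2 of 11 genes, Egln3 and Ero1l, and 8 of 11 were lower in both pairs, with medians of -1.35 and -0.31 beside 0.16 and -0.09 over all genes, of which 2.93% were called in either direction. In C1q macrophages 4 of 9 were lower and 1 higher in both pairs, with medians of -0.22 and -0.27 beside -0.05 and -0.12 over all genes. Spp1 and Arg1 macrophages had 9 of 10 lower and 0 higher in both, with medians of -0.88 and -0.35 beside 0.19 and -0.03. Over all monocytes or macrophages, Egln3, an oxygen sensor induced by HIF, was at 37.1 CPM in 2DG_aPDL1, 56.6 in 2DG, 100 in aPDL1 and 314 in ctrl. In neutrophils Egln3 and P4ha1, a collagen prolyl hydroxylase, were called lower with 2DG among 8 genes with enough UMIs, beside 2.88% of all genes. Egln3 was at 373, 320, 731 and 928 CPM there. Of the 8 genes, 5 were lower and 0 higher in both pairs. Their medians were -1.97 in 2DG over ctrl and -0.23 in 2DG_aPDL1 over aPDL1, beside 0.18 and 0.08 over all genes. In CD8 T cells Egln3 was called lower in both comparisons, at 4.97, 12.6, 9.53 and 30.7 CPM from 54, 114, 99 and 25 UMIs. P4ha1 was called lower there in the aPDL1 comparison, with ratios of -1.19 and -0.59. Enough UMIs were held by 6 of the listed genes for 2DG and 7 for aPDL1 in CD8 T cells. Of all genes there, 1.33% and 2.19% were called in either direction. Macrophage markers summed to 369, 314, 387 and 551 CPM in these T cells and neutrophil markers to 110, 68.5, 69.0 and 134 CPM, both highest in ctrl, with at most 1 marker of each list at 0 in a library; their part was not tested. In the aPDL1 comparison, 2 genes were called lower in macrophages, Adm and Egln3, and none in neutrophils. Of all genes, 2.47% and 1.99% were called in either direction in these 2 gates. Of the 11 genes, 7 were lower in macrophages in both aPDL1 pairs. Their medians were -1.14 and -0.25 beside 0.14 and -0.09 over all genes.

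The genes most like each member were found by Pearson's r of log2 levels over 42 sums of a gate and a library, from 12 gates and 10351 genes. Such sums share libraries and depth, so r is a description. Slc2a1 was nearest to P4hb (0.96), a subunit of the prolyl 4-hydroxylase and a protein disulphide isomerase, Tmem189 (0.96) and Tlr4 (0.93), the receptor for bacterial lipopolysaccharide. Slc2a3 was nearest to Lamb3 (0.94), Stxbp5 (0.93) and Pdlim2 (0.92). Hk1 had its nearest genes at lower values, Tmem120a (0.82), Bcl2l1 (0.78), an inhibitor of apoptosis, and Plk3 (0.77). Hk2 was nearest to Trib1 (0.93), Gm40645 (0.92) and Slc16a3 (0.92), the lactate exporter MCT4. Hk3 was nearest to Tarm1 (0.98), Cpeb2 (0.98) and Arl11 (0.97).

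Among the members themselves, Slc2a1 and Hk3 had r = 0.91, Hk2 and Hk3 0.87, and Slc2a1 and Hk2 0.83. Slc2a1 and Slc2a3 had r = -0.11, and Slc2a3 had -0.29 with Hk2 and -0.29 with Hk3. Hk1 lay between, with 0.45 to Slc2a1, 0.48 to Slc2a3 and 0.42 to Hk2.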

How the data were processed

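Cells of 4 mouse droplet libraries, 1 per treatment, were analysed. The authors deposited UMI counts as integers, unnormalized, for each gene in each barcode. The matrix headers name Cell Ranger 7.0.0 as their source, whereas the submitters' processing notes list Cell Ranger 3.1.0 with mm10. No source used here settles that, or says whether introns were counted.

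Barcodes needed 500 or more genes detected, with no more than 10% of UMIs mitochondrial, and the highest Scrublet scores (scanpy 1.11.5) were removed at 0.8% per 1000 barcodes. A cell entered a lineage gate when it held a minimum number of that lineage's markers (T 3 of 6, B 3 of 5, NK 2 of 5 with no Cd3 UMI, neutrophil 4 of 9, monocyte or macrophage 4 of 12) and passed no other gate. Markers were fixed in a list, and the minimum numbers were set after seeing the data: 911 ungated cells were 1 marker short for macrophages, 231 for neutrophils and 484 for T cells. Spp1 and Arg1 macrophages held each gene at 3 or more per 10000 UMIs. The other finer macrophage gates were drawn only from cells outside that gate. Cells of the non-classical and resident gates were also kept out of the C1q gate. CD8 T cells held Cd8a or Cd8b1 and no Cd4 or Foxp3 UMI. Leiden clusters were made from 2000 variable genes without the members, 30 components and 15 neighbours at resolution 1.

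UMIs were summed per gate and library. A library with no UMI of a gene allows up to 3 counts of the gate's total. With 1 library per group, the planned tests reduce to ratios with counting limits, and the call rule was tested on simulated data. Alternatives were TMM factors (edgeR 4.0.16), the mean over cells, stricter gates and cell filters, clusters, no doublet removal and no filter on low counts. Text names the members, up to 3 genes per list and main comparison by the smaller ratio of the pairs, all called list genes, and the 3 nearest genes. The members and lists were chosen with earlier results of these data known.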

Additional observations from a re-analysis of the deposited data

Results flagged for a closer look

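Hk2 in regulatory T cells, the Foxp3 cells that restrain other T cells, differed by at least 1.5-fold in opposite directions in the pairs of each comparison. It was at 24.0 CPM in 2DG_aPDL1 (15.7 to 35.2), 38.7 in 2DG (31.3 to 47.4), 61.2 in aPDL1 (49.4 to 75.0) and 24.6 in ctrl (13.1 to 42.1), from 26, 94, 93 and 13 UMIs. The log2 ratio was 0.61 in 2DG over ctrl (-0.19 to 1.61) and -1.33 in 2DG_aPDL1 over aPDL1 (-2.04 to -0.71). It was 1.27 in aPDL1 over ctrl (0.47 to 2.28) and -0.67 in 2DG_aPDL1 over 2DG (-1.37 to -0.05). The same 4 levels give both patterns, and the difference between pairs was not tested. The pairs of Hk1 in these cells, at 0.40 and -0.15 for 2DG, did not reach that size.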

How the results depend on the processing

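No paired analysis was possible because each group is 1 library, and for the same reason no library could be left out. The count of 3 members lower with 2DG in neutrophils became 1 (Slc2a3) with at least 1000 detected genes, and 2 (Slc2a1 and Slc2a3) with stricter gates and within cluster 5 or cluster 6. The count of 0 in macrophages in the 2DG comparison became 1 (Slc2a3, lower) with Leiden clusters in place of gates and without the Spp1 and Arg1 gate. The count of 0 in CD8 T cells in the aPDL1 comparison became 1 (Hk3, higher) with no filter on low counts, from 18 UMIs in aPDL1 against 0 in ctrl. The causes were not tested. Every other setting run left these counts as they were. TMM factors moved the neutrophil ratios of 2DG over ctrl by -0.38, and the macrophage ones by -0.15. Signs turned for Slc2a1 in aPDL1 over ctrl within neutrophil cluster 5 (0.10) and for Hk2 in 2DG over ctrl within cluster 6 (0.47). Of 13 ratios past 1.5-fold, all 13 kept their sign under each planned setting that used all 3 gates, and 10 to 13 stayed past 1.5-fold. The clusters and the fixed weights were chosen after seeing the data. Depth limits Slc2a3 in macrophages and Hk3 in lymphocytes, at a few CPM, and every ctrl value in CD8 T cells.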
